A study of Mus musculus with 63 samples.

Results

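Arc, Npas4, Nr4a1, Nr4a2, Nr4a3, Homer1, Bdnf, Ptgs2, Nptx2 and Inhba are genes that neurons transcribe when they are active. The rows of the count tables for these 10 symbols were taken, of 55291 gene symbols in all, and every one of them is described whatever its values. They were followed in 63 RNA-seq libraries of mouse organotypic entorhino-hippocampal tissue cultures, in which the entorhinal cortex and the hippocampus are kept together as a slice. Cultures came from C57BL/6J mice (Synpo+/+) and from mice of the line B6.129-Synpotm1Mndl/Dllr (Synpo-/-), which were not stated to be littermates. They were prepared from animals of either sex at postnatal days 3 to 5 and kept for at least 18 days in vitro. In lesioned cultures the perforant path, the projection of the entorhinal cortex to the hippocampus, had been cut by an entorhinal cortex lesion (ECL) and tissue was collected 3 days later (3 dp ECL).

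A regional experiment of 39 libraries held a single dentate gyrus (DG) or CA3 subfield each, dissected from 1 culture. It comprised 4 control and 7 ECL libraries of Synpo+/+ DG, 7 control and 4 ECL libraries of Synpo-/- DG, 2 control and 3 ECL libraries of Synpo+/+ CA3, and 6 control and 6 ECL libraries of Synpo-/- CA3. A second experiment of 24 libraries compared RNA pulled down with an antibody to synaptopodin (coIP) with the lysate it came from (input), at 6 pooled cultures per replicate. It comprised 5 control and 5 ECL samples of Synpo+/+ cultures and 2 samples of Synpo-/- cultures, each with coIP and input, and the labels do not give the lesion state of the Synpo-/- samples. The labels do not say whether regional libraries of a group came from separate animals, so p-values measure the spread between these cultures.

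Activity-induced transcription begins when calcium enters through NMDA receptors and L-type channels and activates kinases that act on factors already bound at promoters, among them CREB and SRF. The first products are transcription factors, such as Npas4 and the Nr4a orphan nuclear receptors, and some effectors, such as Arc, are made in the same first wave. The effectors then act at the synapse, in the cell or on its neighbours: Arc and the short form of Homer1 in the postsynaptic spine, Nptx2 at AMPA receptors, and Bdnf and the inhibin beta A chain (Inhba, which forms activin A) as secreted signals. Ptgs2, or cyclooxygenase 2, makes prostaglandin precursors. In the hippocampus these genes are known for their part in long-term changes of synaptic strength.

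The regional libraries held 14055930 to 46043990 counts in genes and the coIP and input libraries 11601154 to 53682143. Values for single libraries are in CPM, that is, counts scaled to the same normalized library size. Synpo itself had no lower counts where the label was Synpo-/-: it stood at 22.5 ± 2.36 CPM (SD, n = 4) in Synpo+/+ DG and 51.8 ± 9.32 CPM (SD, n = 7) in Synpo-/- DG of control cultures, with no overlap between the libraries. In control CA3 it was again higher with the Synpo-/- label (30.5 to 49.2 against 25.8 and 25.9 CPM), and in input the ranges overlapped (26.4 to 29.9 and 20.3 to 32.2 CPM), so a loss of Synpo transcripts was not seen in the libraries with that label. Library 5 of lesioned Synpo+/+ DG went against its region label. It had 15.5 CPM of the granule cell marker Prox1 and 0.585 CPM of C1ql2, against 120 to 217 CPM and 17.5 to 40.3 CPM in the other 21 DG libraries, and 28.2 CPM of the CA3 marker Grik4, against 6.87 to 12.6 CPM. The 17 CA3 libraries had 12.7 to 44 CPM of Prox1 and 15.5 to 28.9 CPM of Grik4. Results that rest on this library are given with and without it.

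The DNA just before the RefSeq transcription start is shown because CREB acts there. RefSeq promoter entries (GRCm38.p6) were found for 8 members with 15 start sites, and the 250 bases before each start were searched for TGACG, the core of the cAMP response element, and its reverse complement CGTCA. The core stood at 4 places in the promoters of Nr4a1, Nr4a2 and Nr4a3 each, at 3 in 1 of 2 Homer1 promoters, at 2 in that of Npas4 and at 1 in 1 of 7 Bdnf promoters. None was in the promoters of Ptgs2 and Inhba. Of all 32851 promoters of the table, 17.8% held at least 1 core, 3.9% at least 2, 0.688% at least 3 and 0.137% at least 4. The longer elements TGACGTCA (full cAMP response element, which contains the core on both strands), AAAGGTCA (bound by Nr4a proteins) and the CArG box (bound by SRF) were not in these windows of the members, while 1.55%, 1.34% and 1.47% of all promoters held them. The AP-1 element TGANTCA was in 1 Bdnf promoter (6.75% of all) and TATAAA in those of Nr4a2 and Inhba (12.4% of all). The promoters that held the core are given below 5′ to 3′ on the strand of the gene, with TGACG and CGTCA in capitals. The window of Npas4 lies wholly within an exon of the deposited annotation, in which the gene starts further upstream, and only the letters around its sites are given. That of Nr4a3 is shortened to the letters outside annotated exons.
Npas4, chr19:4990129-4990158, minus strand, 2 of 2 cores: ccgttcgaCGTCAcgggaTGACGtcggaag
Nr4a1, chr15:101266596-101266845, plus strand: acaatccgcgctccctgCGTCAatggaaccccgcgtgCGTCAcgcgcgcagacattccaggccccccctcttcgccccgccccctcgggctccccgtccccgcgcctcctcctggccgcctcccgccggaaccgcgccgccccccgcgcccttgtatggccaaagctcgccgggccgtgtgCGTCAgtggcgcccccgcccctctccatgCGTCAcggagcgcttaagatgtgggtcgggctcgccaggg
Nr4a2, chr2:57124004-57124253, minus strand: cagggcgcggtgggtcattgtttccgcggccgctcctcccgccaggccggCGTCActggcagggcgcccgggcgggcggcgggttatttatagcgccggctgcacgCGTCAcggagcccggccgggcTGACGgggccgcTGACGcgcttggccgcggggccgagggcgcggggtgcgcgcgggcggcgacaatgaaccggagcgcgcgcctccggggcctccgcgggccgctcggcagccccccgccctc
Nr4a3, chr4:48045055-48045152, plus strand, 3 of 4 cores: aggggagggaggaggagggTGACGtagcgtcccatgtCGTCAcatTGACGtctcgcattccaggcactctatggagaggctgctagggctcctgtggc
Homer1, chr13:93303507-93303756, plus strand: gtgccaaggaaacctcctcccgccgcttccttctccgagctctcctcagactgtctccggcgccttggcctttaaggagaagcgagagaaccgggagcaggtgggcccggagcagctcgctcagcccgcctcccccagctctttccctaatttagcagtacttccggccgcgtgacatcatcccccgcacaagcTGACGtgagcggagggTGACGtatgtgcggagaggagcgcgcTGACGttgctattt
Bdnf, chr2:109692186-109692435, plus strand: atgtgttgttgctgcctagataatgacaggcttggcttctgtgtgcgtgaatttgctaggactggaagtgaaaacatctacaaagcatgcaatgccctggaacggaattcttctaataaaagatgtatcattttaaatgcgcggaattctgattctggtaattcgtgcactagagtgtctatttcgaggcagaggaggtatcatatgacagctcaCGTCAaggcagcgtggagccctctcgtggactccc
A match of letters is a description and was not tested for binding.

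In control cultures the members covered a wide range of levels. Per kilobase of exon, Bdnf had the highest level in Synpo+/+ DG, at 11.6 ± 2.32 CPM per kb (SD, n = 4), followed by Homer1 at 9.09, Nr4a3 at 6.78 and Nr4a2 at 6.47 CPM per kb. The other members lay between 1.64 CPM per kb for Ptgs2 and 0.394 CPM per kb for Npas4, with Nr4a1, Inhba, Nptx2 and Arc between them. Bdnf and Homer1 overlapped across the 4 libraries, Nr4a3 and Nr4a2 did as well, and so did each pair of neighbours from Ptgs2 down to Npas4. In Synpo+/+ CA3 (n = 2) Bdnf was again highest at 19.8 CPM per kb, and Nr4a3 (14.8), Homer1 (12.4), Nr4a2 (11.2) and Ptgs2 (8.16) came next. Arc was at 2.07 and Npas4 at 0.243 CPM per kb there. In the input of whole cultures Bdnf (24.2 CPM per kb) and Nr4a2 (9.89) led and Npas4 was last at 0.119 CPM per kb. The Bdnf value of the input had an SD of 20.1 CPM per kb (n = 5), since input replicate 1 was at 58 CPM per kb. The antisense gene Gm45346 overlaps 14.4% of the exonic bases of Bdnf, and without strand its reads cannot be told from those of Bdnf.

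**Figure D1:**
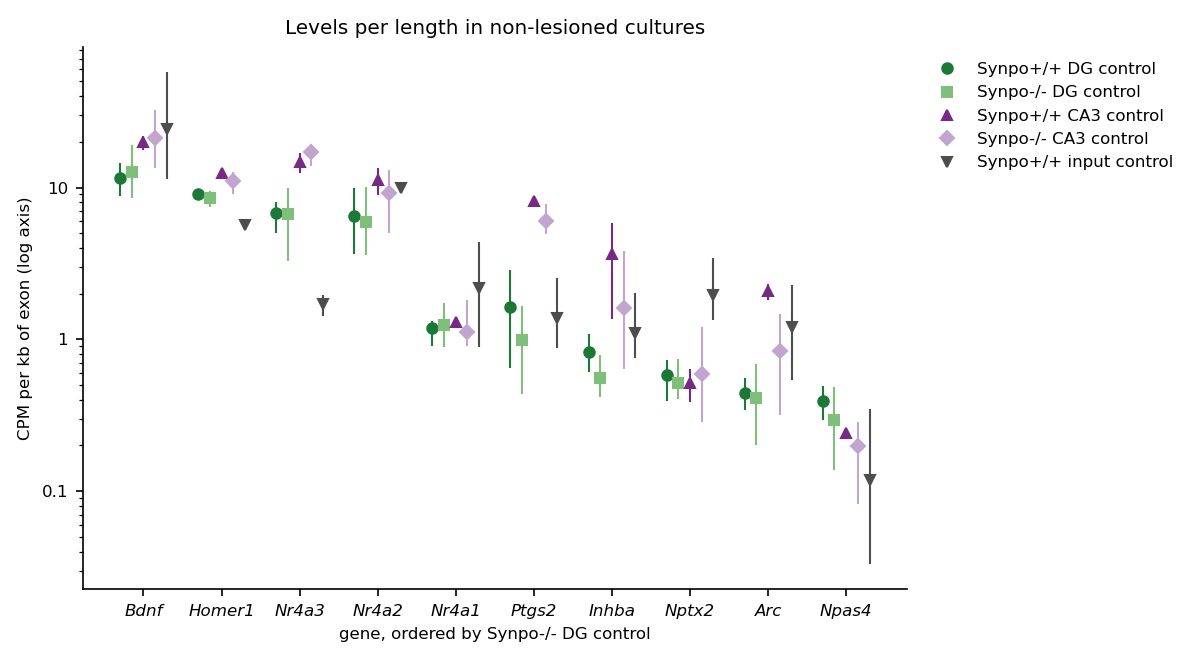
Level of each gene in CPM per kilobase of exon (log axis), as the mean of the libraries of each control group (markers) with the range over its libraries (vertical lines). Bdnf, Homer1, Nr4a3 and Nr4a2 sit above the other genes in Synpo+/+ DG and Npas4 is lowest.

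The first question was how these genes stood in the denervated DG, where the cut axons ended on the granule cells. In Synpo+/+ DG 6 of the 10 members were called at 3 dp ECL: Arc, Npas4, Nr4a1, Nr4a2 and Bdnf were higher and Inhba was lower (edgeR's quasi-likelihood test, adjusted p under 0.05). In Synpo-/- DG 5 were called, Arc, Npas4, Nr4a1, Nr4a2 and Bdnf, all higher. Over all genes tested, 12.2% were called in Synpo+/+ DG and 8.53% in Synpo-/- DG. Lesioned and control libraries did not overlap for 11.7% and 8.01% of genes tested. The median log2 fold change of the members was 1.09 with library 5 in Synpo+/+ DG and 0.77 in Synpo-/- DG. Without library 5 the middle of the order in Synpo+/+ DG lay between Nr4a3 (0.58) and Bdnf (0.80). That of all genes tested was near 0 in both. More Xist than Y-linked counts were found in 4 of 4 control and 4 of 7 lesioned libraries of Synpo+/+ DG, where 4 of 5 sex-linked genes were called, with or without library 5, and in 4 of 7 and 2 of 4 of Synpo-/- DG. In bulk tissue, fewer cells of a type and less RNA per cell cannot be told apart.

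Among the transcription factors, Npas4, which neurons induce on calcium entry and which acts on inhibitory synapses, had 1.22, 2.05, 1.84 and 1.4 CPM in the control libraries of Synpo+/+ DG, and 3.06 to 5.27 CPM with a median of 3.68 in the ECL libraries. All lesioned libraries were above all controls. The difference was 2.47-fold (log2 1.30, SE 0.226, adjusted p = 0.00255) and, without ECL library 5, log2 1.22 (adjusted p = 0.00263). In Synpo-/- DG the controls ran from 0.567 to 2.01 CPM (median 1.31) and the lesioned libraries were at 8.25, 5.54, 3.86 and 1.71 CPM. Replicate 4 lay inside the range of the controls and the others above it. The log2 difference of 1.94 (SE 0.357, adjusted p = 0.0031) was 0.95 with an adjusted p of 0.3 in the libraries with more Xist than Y-linked counts.

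Nr4a1, an orphan nuclear receptor of the first wave, was at 4.42, 4.4, 4.68 and 3.16 CPM in Synpo+/+ control DG. The 7 lesioned libraries ran from 4.65 to 34.1 CPM with a median of 13.7, and the lowest of them lay just under the highest control. The log2 fold change was 1.91 (SE 0.406, adjusted p = 0.00966). The controls of Synpo-/- DG had 3.14 to 6.11 CPM (median 3.92) and its lesioned libraries 38.1, 24.8, 28.2 and 17.6 CPM, with no overlap. This was a 6.02-fold difference (log2 2.59, SE 0.192, adjusted p = 7.2e-07).

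Nr4a2, its relative, which is also a marker of some cortical and claustral neurons, had 40.7, 31, 18.5 and 14.9 CPM in Synpo+/+ control DG and 27.2 to 118 CPM (median 86.2) after ECL. The ranges overlapped, and the difference of 2.6-fold (log2 1.38, SE 0.382, adjusted p = 0.032) remained called in 5 of 11 fits that left out 1 library. Without control replicate 4 its adjusted p was 0.109. In Synpo-/- DG the ranges did not overlap, with controls at 14.7 to 41.1 CPM (median 23.1) and lesioned libraries at 93.1, 80.1, 118 and 43 CPM (log2 1.75, SE 0.247, adjusted p = 0.000396). Nr4a3, the third receptor of the family, missed the threshold of edgeR in both genotypes. Its control values in Synpo+/+ DG were 30, 39.8, 44 and 48.5 CPM and its lesioned values 42 to 115 CPM (median 53.8), a log2 difference of 0.75 (SE 0.248, adjusted p = 0.0571). In Synpo-/- DG the controls ran from 19.6 to 59.1 CPM (median 41.6) and the lesioned libraries were at 35.8, 56.4, 104 and 73.8 CPM (log2 0.72, SE 0.25, adjusted p = 0.089). Without ECL library 5 the log2 difference in Synpo+/+ DG was 0.58 (SE 0.204, adjusted p = 0.0643). With library 5 DESeq2 called Nr4a3 there, with 4305 of 51289 genes called. In the libraries with more Xist than Y-linked counts edgeR called Nr4a3 in both genotypes. The log2 differences were 1.02 (adjusted p = 0.0288) in Synpo+/+ DG and 1.25 (adjusted p = 0.0208) in Synpo-/- DG. The first fit held 4 lesioned libraries, library 5 among them, and the second 2. These fits called 10.9% and 4.08% of all genes.

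Of the synaptic effectors, Arc, whose protein drives the internalization of AMPA receptors, moved most. Its control values in Synpo+/+ DG were 1.69, 1.51, 1.13 and 1.05 CPM, and the lesioned libraries ran from 3.91 to 24.3 CPM with a median of 7.9. All 7 lesioned libraries were above all 4 controls. The fold was 7.46 (log2 2.90, SE 0.484, adjusted p = 0.002). The highest value was that of ECL library 5, and without it the log2 fold change was 2.52 (SE 0.363, adjusted p = 0.000311). Controls of the other genotype had 0.618 to 2.12 CPM (median 1.03) and the lesioned libraries 18.6, 10.6, 14.1 and 6.46 CPM. Again the groups stood apart, by 9.69-fold (log2 3.28, SE 0.292, adjusted p = 5.95e-06).

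Homer1, a scaffold of the postsynaptic density that links metabotropic glutamate receptors to their partners, did not pass. It had 107, 110, 107 and 112 CPM in Synpo+/+ control DG and 93 to 147 CPM (median 114) after ECL (log2 0.08, SE 0.114, adjusted p = 0.644). Counts per gene sum over its 12 annotated transcripts, so the short activity-induced form is not seen apart from the long forms. Nptx2, a secreted pentraxin that gathers AMPA receptors, was near 1 CPM throughout. Its values were 1.62, 1.87, 0.992 and 1.4 CPM in Synpo+/+ control DG and 0.372 to 2.34 CPM (median 1.39) in the lesioned libraries, with a log2 difference of -0.07 (SE 0.392, adjusted p = 0.906).

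The secreted signals went in opposite directions in Synpo+/+ DG. Bdnf, a neurotrophin that acts through the receptor TrkB, had 54.7, 69.6, 89.7 and 74 CPM in the controls and 84.6 to 190 CPM (median 121) after ECL. The lowest lesioned libraries lay within the range of the controls and the others above it. It was 1.84-fold higher (log2 0.88, SE 0.222, adjusted p = 0.0219) and, without ECL library 5, log2 0.80 higher (adjusted p = 0.0185). The lesioned libraries of Synpo-/- DG had 102, 118, 149 and 175 CPM against 53.3 to 119 CPM (median 78.7) in the controls, so that the ranges overlapped (log2 0.75, SE 0.186, adjusted p = 0.0179).

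Inhba was low in DG. Its control values in Synpo+/+ were 3.92, 3.91, 6.14 and 6.97 CPM and its lesioned values 2.27 to 3.86 CPM with a median of 3.46, so that all lesioned libraries lay below all controls. The log2 fold change of -0.68 (SE 0.204, adjusted p = 0.0423) was called in 5 of 11 fits that left out 1 library. It was not called in a fit of all 4 DG groups, without a filter on low counts, or in the libraries with more Xist than Y-linked counts (log2 -0.76, adjusted p = 0.0652). The lesioned libraries of Synpo-/- DG were at 3.86, 8.79, 2.15 and 3.59 CPM, around the control median of 3.45 CPM (log2 0.34, SE 0.286, adjusted p = 0.571).

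Ptgs2 was not called in DG of either genotype. Its controls in Synpo+/+ were at 2.98, 6.14, 7.89 and 13.1 CPM. Of the lesioned libraries, 6 ran from 5.47 to 14.2 CPM and library 5, the one with CA3 markers, was at 77.8 CPM. The log2 difference was 1.36 (SE 0.632, adjusted p = 0.147) with that library and 0.40 (SE 0.303, adjusted p = 0.379) without it. In Synpo-/- DG its controls ran from 1.99 to 7.64 CPM (median 4.43) and its lesioned libraries were at 3.25, 7.67, 10.7 and 10.1 CPM. The ranges overlapped, since replicate 1 lay among the controls, and the log2 difference was 0.78 (SE 0.328, adjusted p = 0.164). In the 2 lesioned and 4 control libraries of Synpo-/- DG with more Xist than Y-linked counts it was called (log2 1.34, adjusted p = 0.0166).

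**Figure D2:**
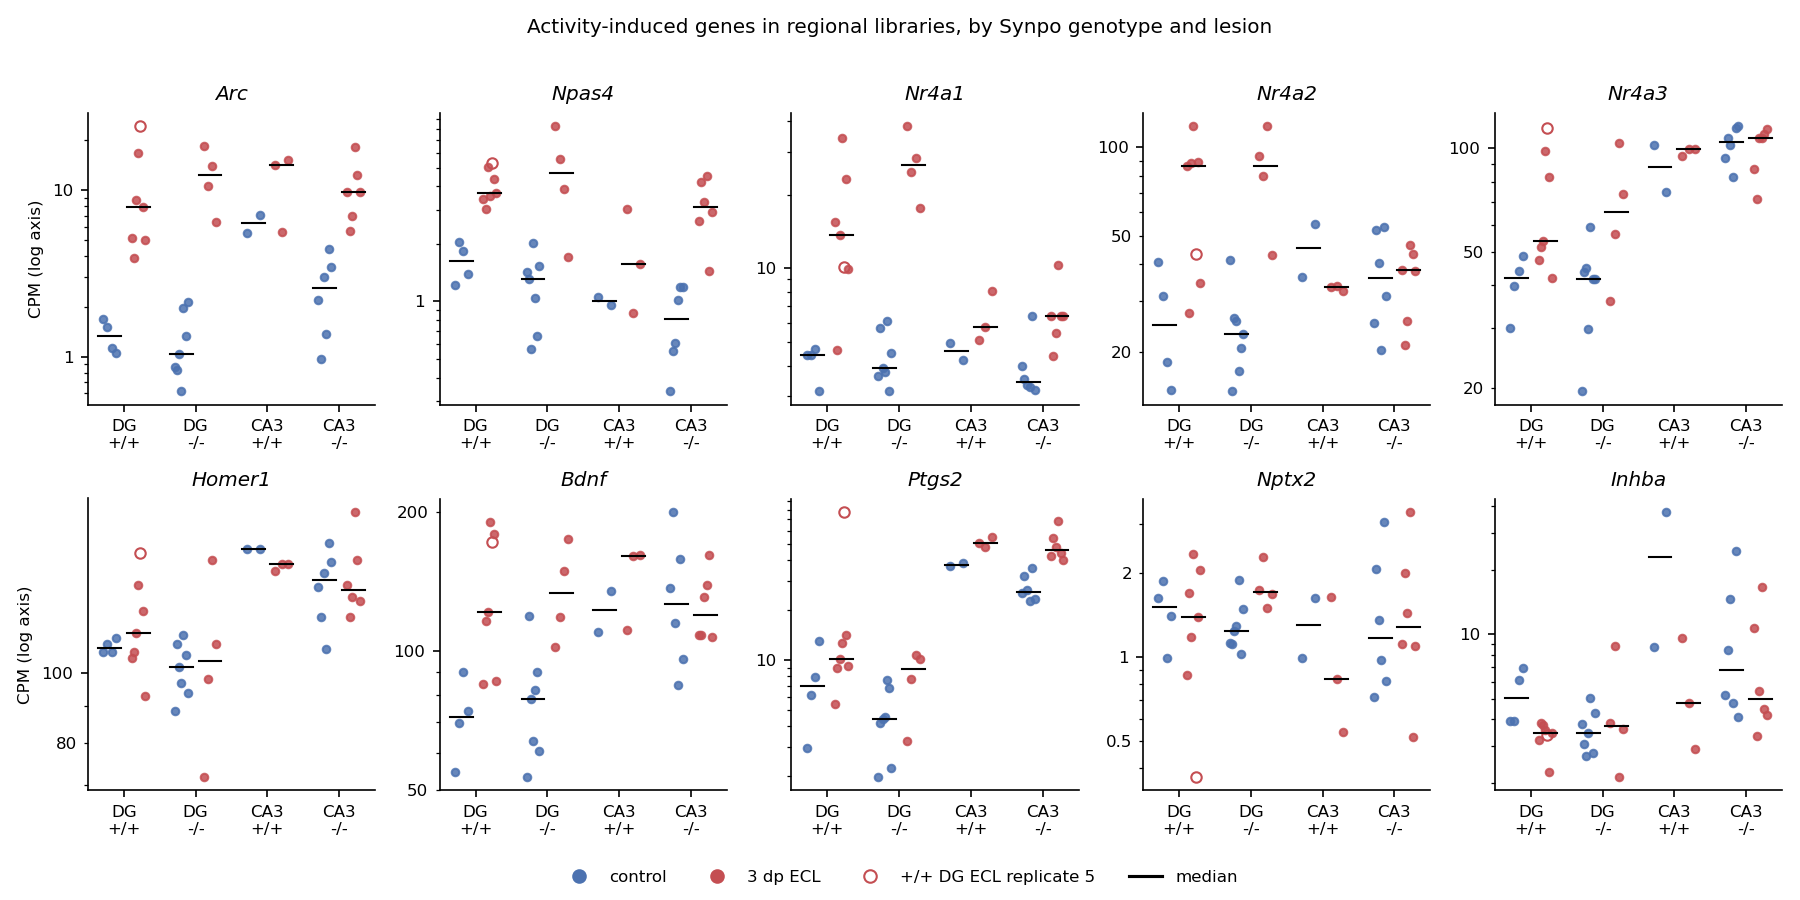
CPM of the 10 genes in every regional library (log axis), by region, genotype and lesion, with a bar at the median of each group and an open circle for lesioned Synpo+/+ DG library 5. Arc stands at 1.05 to 1.69 CPM in the 4 control and at 3.91 to 24.3 CPM in the 7 lesioned libraries of Synpo+/+ DG, and Ptgs2 of lesioned library 5 at 77.8 CPM.

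Leaving out ECL library 5 left 6 members called in Synpo+/+ DG, with 13.8% of all genes. Markers of glia moved with these results. All 8 microglial markers were called higher in Synpo+/+ DG, where their summed level was 341 to 481 CPM in controls and 923 to 1123 CPM after ECL, and 7 of 8 in Synpo-/- DG (440 to 815 against 976 to 1250 CPM). Astrocyte markers were called higher in 4 of 6 and 5 of 6 cases, with sums of 3952 to 4497 against 6111 to 7667 CPM in Synpo+/+ DG and of 4200 to 4962 against 6337 to 8293 CPM in Synpo-/- DG. No marker of these lists was at 0 throughout a group. Of the 8 granule cell markers 0 were called in Synpo+/+ DG with library 5 and 2 were higher without it. The part of these markers in the results was not tested.

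Other genes of the same response moved in DG as well, read against the same shares of all genes, 12.2% and 8.53%. Of 23 further activity-induced transcription factors, 9 were higher and 0 lower in Synpo+/+ DG, with or without library 5, and 11 were higher and 0 lower in Synpo-/- DG. Egr1, a zinc finger factor of the first wave, had log2 fold changes of 1.79 and 2.48, and its relative Egr2 had 3.22 and 3.77. Fos, a subunit of AP-1, was higher by log2 1.61 in Synpo+/+ DG. The median of the list in Synpo+/+ DG was 0.38. Of 30 further effectors, 6 were higher and 1 lower in Synpo+/+ DG and 9 higher and 1 lower in Synpo-/- DG. Gadd45g, a stress-response gene, rose by 1.19 and 1.15 and Dusp6, a phosphatase of ERK, by 0.98 and 1.13 on the log2 scale, while the ubiquitin ligase gene Rnf217 was lower (-0.62 and -0.72). Without library 5 the count of effectors in Synpo+/+ DG was 8 higher and 4 lower. Of 26 regulators upstream of the response 0 were called in Synpo+/+ DG, and in Synpo-/- DG 2 were, Mef2c (log2 -0.58) and the kinase gene Camk4 (-0.82), both lower.

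The partners of the member proteins were counted in the same way, against 7.86% of all genes called higher and 4.31% lower in Synpo+/+ DG and 5.17% and 3.36% in Synpo-/- DG. None of 9 genes of the Homer1 list, the Homer family and its ligands, was called in Synpo+/+ DG, and Itpr1 and Homer2 were lower in Synpo-/- DG. In the list of prostaglandin synthesis and receptors, 3 of 9 genes were higher in Synpo+/+ DG: Ptgs1, the constitutive cyclooxygenase (log2 0.77), Hpgd, which breaks prostaglandins down (0.75), and the phospholipase gene Pla2g4a (0.70). The receptor gene Ptger2 was lower (-0.94). Ptgs1 and Hpgd were higher in Synpo-/- DG as well. Of 6 Bdnf receptor and sorting genes, 0 were called in Synpo+/+ DG with library 5 and 2 were higher without it. Ntrk2, which encodes the Bdnf receptor TrkB, was called in Synpo-/- DG with a log2 fold change of 0.43.

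CA3, whose pyramidal cells receive the cut axons on their distal dendrites, was compared in the same way. In Synpo+/+ CA3 edgeR called 0 members, with 3 at an unadjusted p under 0.05 (Nr4a2, Ptgs2 and Inhba), and DESeq2 called 0. In Synpo-/- CA3 3 were called, Arc, Npas4 and Ptgs2, all higher and with no overlap between the groups. Over all genes, 1.78% were called in Synpo+/+ CA3 and 0.077% in Synpo-/- CA3. Lesioned and control libraries did not overlap for 46.8% and 0.419% of genes tested. The first comparison had 2 control and 3 ECL libraries and the second 6 and 6.

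Arc in Synpo-/- CA3 was at 0.965 to 4.45 CPM (median 2.6) in controls and at 5.72 to 18.2 CPM (median 9.84) after ECL, a 4.05-fold difference (log2 2.02, SE 0.314, adjusted p = 0.0219). Npas4 had 0.339 to 1.19 CPM (median 0.815) and 1.45 to 4.54 CPM (median 3.12), and was 3.87-fold higher (log2 1.95, SE 0.326, adjusted p = 0.0249). It was called in 7 of 12 fits that left out 1 library. Ptgs2 had 22.6 to 35.7 CPM (median 25.7) and 40 to 68.4 CPM (median 45.9), with a log2 fold change of 0.85 (SE 0.133, adjusted p = 0.0219). Each lesioned library was above each control for these 3 genes. Nr4a1, the receptor with the clearest difference in Synpo-/- DG, had 3.19 to 6.4 CPM (median 3.42) in the controls of Synpo-/- CA3 and 4.39 to 10.3 CPM (median 6.36) after ECL (log2 0.74, SE 0.209, adjusted p = 0.372). Nr4a2 had a log2 difference of -0.05 and Bdnf one of -0.05 as well. Microglial markers had sums of 548 to 997 CPM in controls and 475 to 854 CPM after ECL in Synpo-/- CA3, and 0 of 8 were called. Oligodendrocyte markers moved with these results: their sums were 1605 to 2544 CPM in controls and 1082 to 1508 CPM after ECL, without overlap, and 2 of 8 were called lower. General neuron markers had sums of 6542 to 8283 and 4092 to 7627 CPM, with 0 of 6 called. The part of these markers was not tested. Of the further transcription factors, Egr1 (log2 1.84) and Egr2 (2.22) were called higher there, and 0 of the further effectors.

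In Synpo+/+ CA3 Arc had 5.53 and 7.13 CPM in controls and 14.2, 5.64 and 15.2 CPM after ECL, an overlap that left an adjusted p of 0.232 (log2 0.77, SE 0.367). Npas4 had 1.05 and 0.959 CPM against 3.06, 0.874 and 1.57 CPM (log2 0.74, SE 0.555, adjusted p = 0.438). Ptgs2 was at 36.5 and 38.3 CPM and at 50.3, 48 and 54.9 CPM, with all lesioned libraries above both controls, and missed the threshold (adjusted p = 0.131). Such a lack of overlap held for 46.8% of all genes tested here. Inhba had 8.76 and 37.6 CPM in the controls and 9.61, 4.77 and 2.9 CPM after ECL (log2 -2.13, adjusted p = 0.0737), and the first control lay inside the range of the lesioned libraries. Microglial marker sums were 366 to 592 CPM in controls and 722 to 928 CPM after ECL. More Xist than Y-linked counts were found in 2 of 2 controls and 1 of 3 lesioned libraries of this comparison. In those 3 libraries the log2 differences were 1.16 for Arc and -3.09 for Inhba. They rest on a lone lesioned library, so no call is given.

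**Figure D3:**
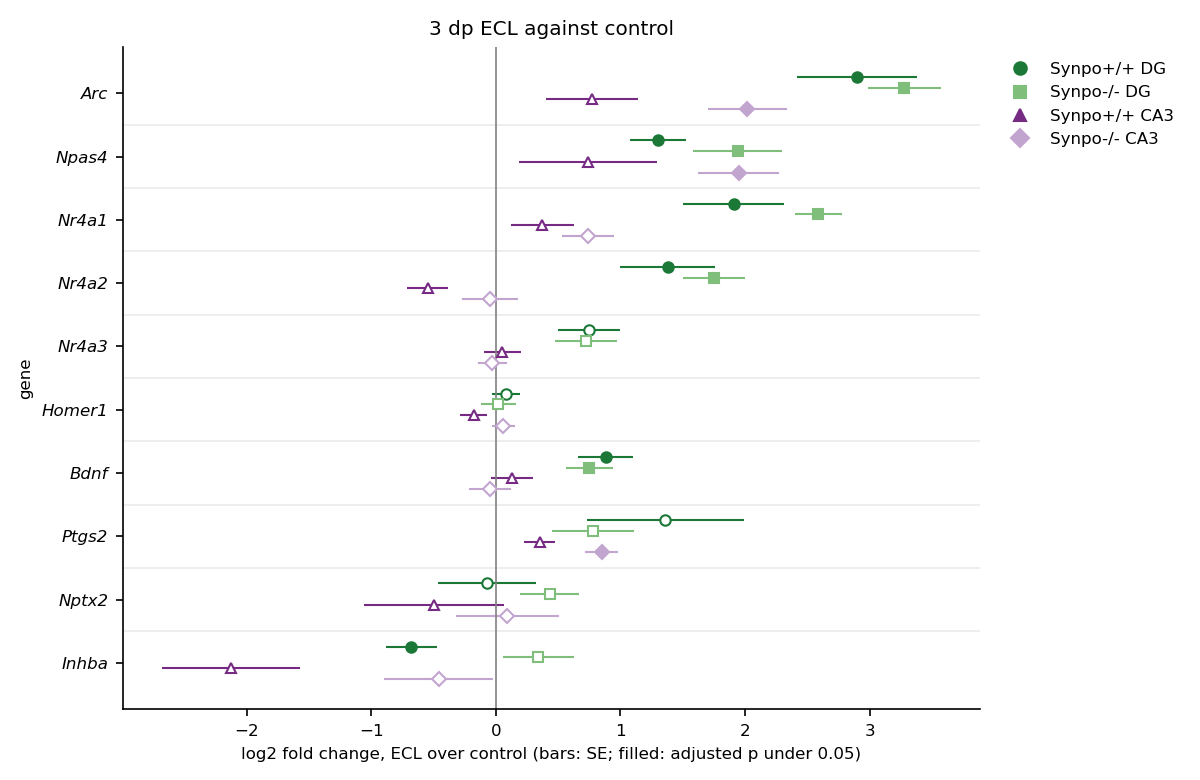
Log2 fold change at 3 dp ECL against control for the 10 genes in each region and genotype, with error bars of 1 SE and filled points for an adjusted p under 0.05. Arc lies at 2.90 and 3.28 in DG of the 2 genotypes and Homer1 near 0.

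The difference between the lesion effects was tested as an interaction. In Synpo-/- cultures the lesion effect was larger in DG than in CA3 for Nr4a1 (difference in log2 fold change 1.83, SE 0.3, adjusted p = 0.00285) and Nr4a2 (1.79, SE 0.364, adjusted p = 0.0128), with 1.12% of all genes called. Arc (1.24), Nr4a3 (0.74) and Bdnf (0.78) were under 0.05 there only before adjustment. In Synpo+/+ cultures edgeR called 0 members and 0% of genes for this interaction. Arc (2.08), Nr4a1 (1.48), Nr4a2 (1.88) and Inhba (1.42) were under 0.05 before adjustment, and DESeq2 called 0 members. The interaction of genotype with lesion called 0 members in DG, with 0.00381% of all genes called, and 0 members in CA3, with 0% of genes. Before adjustment Inhba (0.98) was under 0.05 in DG and Arc (1.21) in CA3, and DESeq2 called 0 members in both regions.

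The subfields themselves were compared next. In control cultures 5 members were lower in DG than in CA3 in Synpo+/+ (Arc, Nr4a3, Bdnf, Ptgs2 and Inhba) and 6 in Synpo-/- (these and Homer1), and 0 were higher. Over all genes, 5.39% were called in Synpo+/+ and 25.5% in Synpo-/-. The libraries of the subfields did not overlap for 27.6% and 11.2% of genes tested. Ptgs2, which pyramidal cells are known to express, had the largest difference among the members. Its values of 2.98 to 13.1 CPM in control DG lay below the 36.5 and 38.3 CPM of control CA3, by 4.91-fold (log2 -2.30, SE 0.35, adjusted p = 0.0012). In Synpo-/- it was at 1.99 to 7.64 CPM in DG and at 22.6 to 35.7 CPM in CA3, 5.68-fold lower in DG (log2 -2.51, SE 0.229, adjusted p = 1.5e-07). The library with CA3 markers is a lesioned one and does not enter these comparisons.

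Arc in control DG of Synpo+/+ (1.05 to 1.69 CPM) was 4.64-fold below CA3 (5.53 and 7.13 CPM, adjusted p = 0.00036). In Synpo-/- it was 1.94-fold below (log2 -0.95, SE 0.335, adjusted p = 0.0426), with overlapping ranges of 0.618 to 2.12 and 0.965 to 4.45 CPM. This call held in 4 of 13 fits that left out 1 library, with an adjusted p of up to 0.14 without CA3 control replicate 5. Nr4a3 was lower in DG by log2 1.11 (SE 0.185, adjusted p = 0.00227) in Synpo+/+ and by log2 1.26 (SE 0.161, adjusted p = 8.5e-06) in Synpo-/-, without overlap. Its control values were 74.7 and 102 CPM in CA3 of Synpo+/+ and 82.4 to 116 CPM in CA3 of Synpo-/-. Bdnf was lower in DG by log2 0.75 (SE 0.174, adjusted p = 0.0194) and by log2 0.64 (SE 0.183, adjusted p = 0.0134). Inhba was lower in DG by log2 2.12 (SE 0.394, adjusted p = 0.00497) in Synpo+/+, which rested on CA3 control replicate 2 at 37.6 CPM, and the log2 difference without that library was -0.73 with an adjusted p of 0.379. In Synpo-/- it was -1.42 (SE 0.336, adjusted p = 0.00375).

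Homer1 was 1.21-fold lower in DG than in CA3 in Synpo-/- controls (log2 -0.28, SE 0.077, adjusted p = 0.0114) and stood at log2 -0.43 (SE 0.123, adjusted p = 0.0586) in Synpo+/+. DESeq2 called Homer1 in Synpo+/+ as well, with 1677 of 50117 genes called. So did edgeR with the length trend removed (log2 -0.46, adjusted p = 0.0279). In the pentraxin list, Nptx1 (log2 -1.23) and the receptor gene Nptxr (-1.30) were lower in Synpo+/+ DG, while Nptx2 was near 1 CPM in both subfields. Of the 8 granule cell markers 7 were called higher in Synpo+/+ DG and 8 in Synpo-/- DG, and of the 8 CA3 markers 4 and 6 were lower. General neuron markers had sums of 3228 to 4065 CPM in DG and 5694 to 6214 CPM in CA3 of Synpo+/+ controls. In Synpo-/- controls they had 3253 to 5009 and 6542 to 8283 CPM. Sums of oligodendrocyte markers were also lower in DG of both genotypes without overlap, and those of interneuron and CA1 markers were higher. The part of these markers was not tested.

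Lesioned cultures were compared in the same way. In Synpo-/- at 3 dp ECL, Nr4a1 was 4.17-fold higher in DG than in CA3 (log2 2.06, SE 0.221, adjusted p = 2.13e-05) and Nr4a2 2.38-fold (log2 1.25, SE 0.248, adjusted p = 0.00315), while Ptgs2 was 6.11-fold lower (log2 -2.61, SE 0.267, adjusted p = 1.58e-05). Arc, lower in DG without lesion, had a log2 difference of 0.25 (adjusted p = 0.691). These calls stood among 13.6% of all genes called. In Synpo+/+ at 3 dp ECL, edgeR called 0 members, with 5 under 0.05 before adjustment, and 2.05% of all genes. DESeq2 called 2, Npas4 and Ptgs2, with 1360 of 50534 genes called. Without ECL library 5 edgeR called 5: Npas4 (log2 1.14, adjusted p = 0.0166), Nr4a1 (1.46, adjusted p = 0.0185) and Nr4a2 (1.20, adjusted p = 0.0185) were higher in DG and Nr4a3 (-0.60, adjusted p = 0.0415) and Ptgs2 (-2.28, adjusted p = 2.28e-07) lower. The share of all genes called was then 19.8%.

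**Figure D4:**
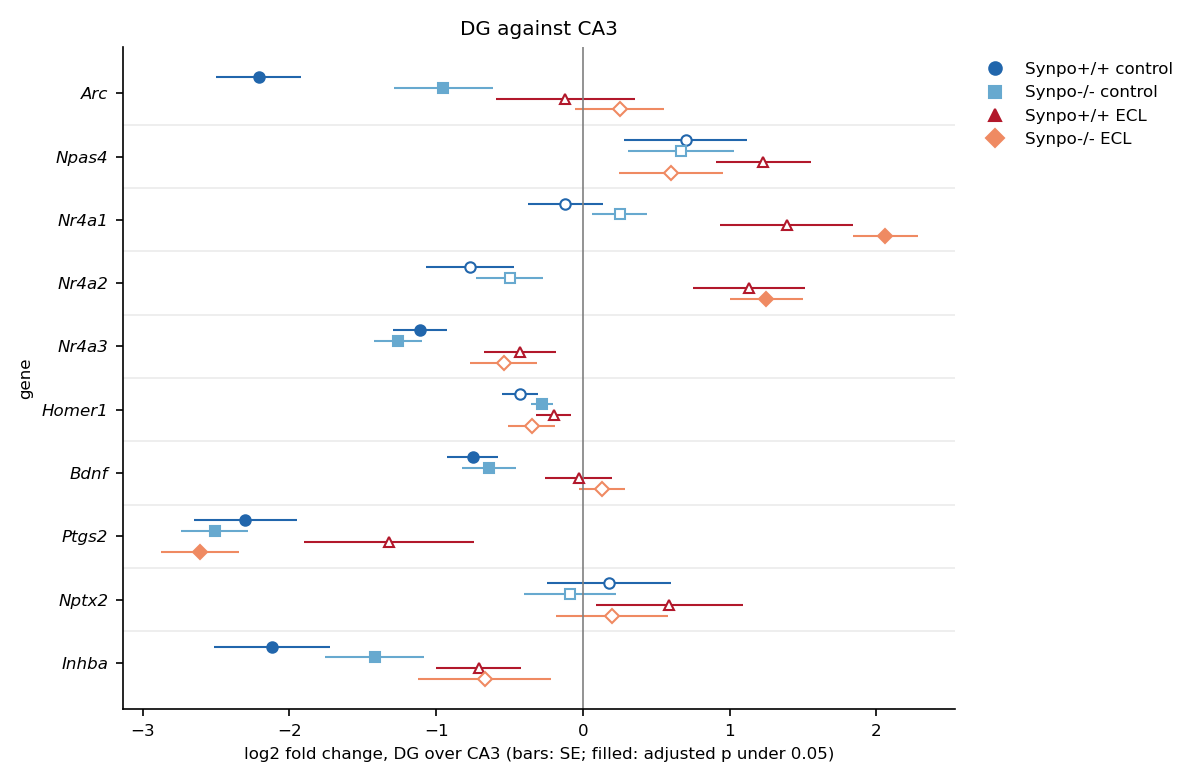
Log2 fold change of DG against CA3 for the 10 genes in control and lesioned cultures of both genotypes, with error bars of 1 SE and filled points for an adjusted p under 0.05. Ptgs2 lies at -2.30, -2.51 and -2.61 in the 3 comparisons in which it was called, and Nr4a1 at 2.06 in lesioned Synpo-/- cultures.

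Between the genotypes edgeR called 0 members in each of the 4 comparisons. The share of all genes called was 0.0166% in control DG, 0.0166% in lesioned DG, 0.00413% in control CA3 and 0.00891% in lesioned CA3. Before adjustment, Ptgs2 (log2 -0.78) and Inhba (-0.59) were under 0.05 in control DG and Npas4 (0.86) in lesioned CA3. In lesioned DG Ptgs2 was (log2 -1.32), which rested on ECL library 5, and without that library its log2 difference was -0.37. In control CA3 Arc (-1.35, adjusted p = 0.136), Ptgs2 (-0.50, adjusted p = 0.162) and Inhba (-1.23) were. Arc had 5.53 and 7.13 CPM in the Synpo+/+ libraries there and 0.965 to 4.45 CPM in the Synpo-/- libraries, which do not overlap. The same held for 18.5% of all genes tested. DESeq2 called Arc, with 834 of 49945 genes called. In the other 3 comparisons DESeq2 called 0 members.

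The pull-down asked which transcripts were held with synaptopodin, a protein of the spine apparatus. In control Synpo+/+ cultures Arc, Nr4a3 and Homer1 were higher in coIP than in input, and in lesioned ones Arc, Nr4a3, Homer1, Ptgs2 and Nptx2. These counts of 3 and 5 of 9 members tested, all higher in coIP, stand beside 29.6% and 30.5% of all genes called higher. In either direction 55% and 58.3% of all genes were called, and the counts are no higher than those shares. Whether the members differ from the share called higher was not tested. In the libraries labelled Synpo-/- (n = 2 per fraction) edgeR called 0 members, with Ptgs2 under 0.05 before adjustment and 31.4% of all genes called, and DESeq2 called 0. CoIP and input of the same replicate number were taken as 1 lysate. A fit with the lysate as a block is given beside the results it changes.

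Arc had 6.59, 6.31, 5.83, 7.16 and 8.21 CPM in the coIP of control cultures and 3.53, 3.34, 1.64, 2.95 and 6.99 CPM in the input of the same lysates, in replicate order. CoIP was higher in each of the 5 lysates, by 1.17 to 3.56-fold with a median of 1.89. The log2 fold change was 0.91 (SE 0.28, adjusted p = 0.0124). In lesioned cultures coIP had 7.7, 8.96, 5.38, 10.2 and 7.61 CPM and input 6.89, 5.97, 3.8, 4.57 and 2.75 CPM, higher in 5 of 5 lysates (log2 0.75, SE 0.24, adjusted p = 0.0161). With the label Synpo-/- coIP had 5.71 and 2.66 CPM and input 3.73 and 1.46 CPM. The fractions overlapped (log2 0.64, SE 0.433, adjusted p = 0.278). The labels number these lysates in a pair of ways: coIP was higher in both lysates under the numbers of the titles and in 1 of 2 under the other numbering.

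Nr4a3 was at 14.9, 18.9, 12.7, 11.3 and 14.2 CPM in coIP and at 11.1, 11.7, 8.56, 9.35 and 10.1 CPM in input of control cultures. It was higher in coIP in every lysate (log2 0.52, SE 0.147, adjusted p = 0.00741), and also in lesioned cultures (log2 0.72, SE 0.125, adjusted p = 0.000234), where coIP ran from 11.6 to 15.6 CPM and input from 7.86 to 9.38 CPM without overlap. Homer1 had 78.3 to 97.8 CPM in coIP and 64 to 72.6 CPM in input of control cultures, again without overlap. Its log2 fold change of 0.36 (SE 0.0859, adjusted p = 0.0024) and that of 0.34 in lesioned cultures (SE 0.0986, adjusted p = 0.00816) turned to -0.07 and -0.10, neither called, when the trend of fold changes with gene length was removed. Homer1 has 11976 exonic bases. With the label Synpo-/- the log2 differences were 0.26 for Nr4a3 (adjusted p = 0.406) and 0.04 for Homer1 (adjusted p = 0.859). Fractions without overlap were found for 39% of all genes tested in control and 41.3% in lesioned cultures.

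Nptx2 in lesioned cultures had 5.76, 6.39, 6.06, 6.12 and 7.72 CPM in coIP, all above the 4.81, 4.47, 3.59, 3.1 and 4.78 CPM of input (log2 0.64, SE 0.174, adjusted p = 0.00609). In control cultures it was higher in coIP in 5 of 5 lysates with an adjusted p of 0.0643, and with the lysate as a block it was called (log2 0.63, SE 0.149, adjusted p = 0.00145). Bdnf, in contrast, was lower in coIP in all 5 control and all 5 lesioned lysates. Its coIP values in control cultures were 294, 163, 61.6, 53.9 and 68.7 CPM, against 360, 171, 70.6, 75 and 75.2 CPM in input. The log2 differences of -0.21 and -0.23 were not called in the fit without pairing, and with the block they were, at -0.23 (adjusted p = 0.0172) and -0.27 (adjusted p = 0.0189). The fits with the block called 58.6% of all genes in control and 58.1% in lesioned cultures. Ptgs2 in lesioned cultures (log2 0.48, SE 0.183, adjusted p = 0.0377) was called in 3 of 10 fits that left out 1 library. With the label Synpo-/- the log2 difference of Ptgs2 was larger, at 0.62 (SE 0.257, adjusted p = 0.0869). That of Nptx2 was 0.40 (adjusted p = 0.287) and that of Bdnf -0.04 (adjusted p = 0.843) in those libraries. Npas4, between 0.0395 and 2.73 CPM in these libraries, did not pass the filter on low counts in the Synpo+/+ comparisons and was not tested there. It was higher in coIP in 4 of 5 control and 4 of 5 lesioned lysates.

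**Figure D5:**
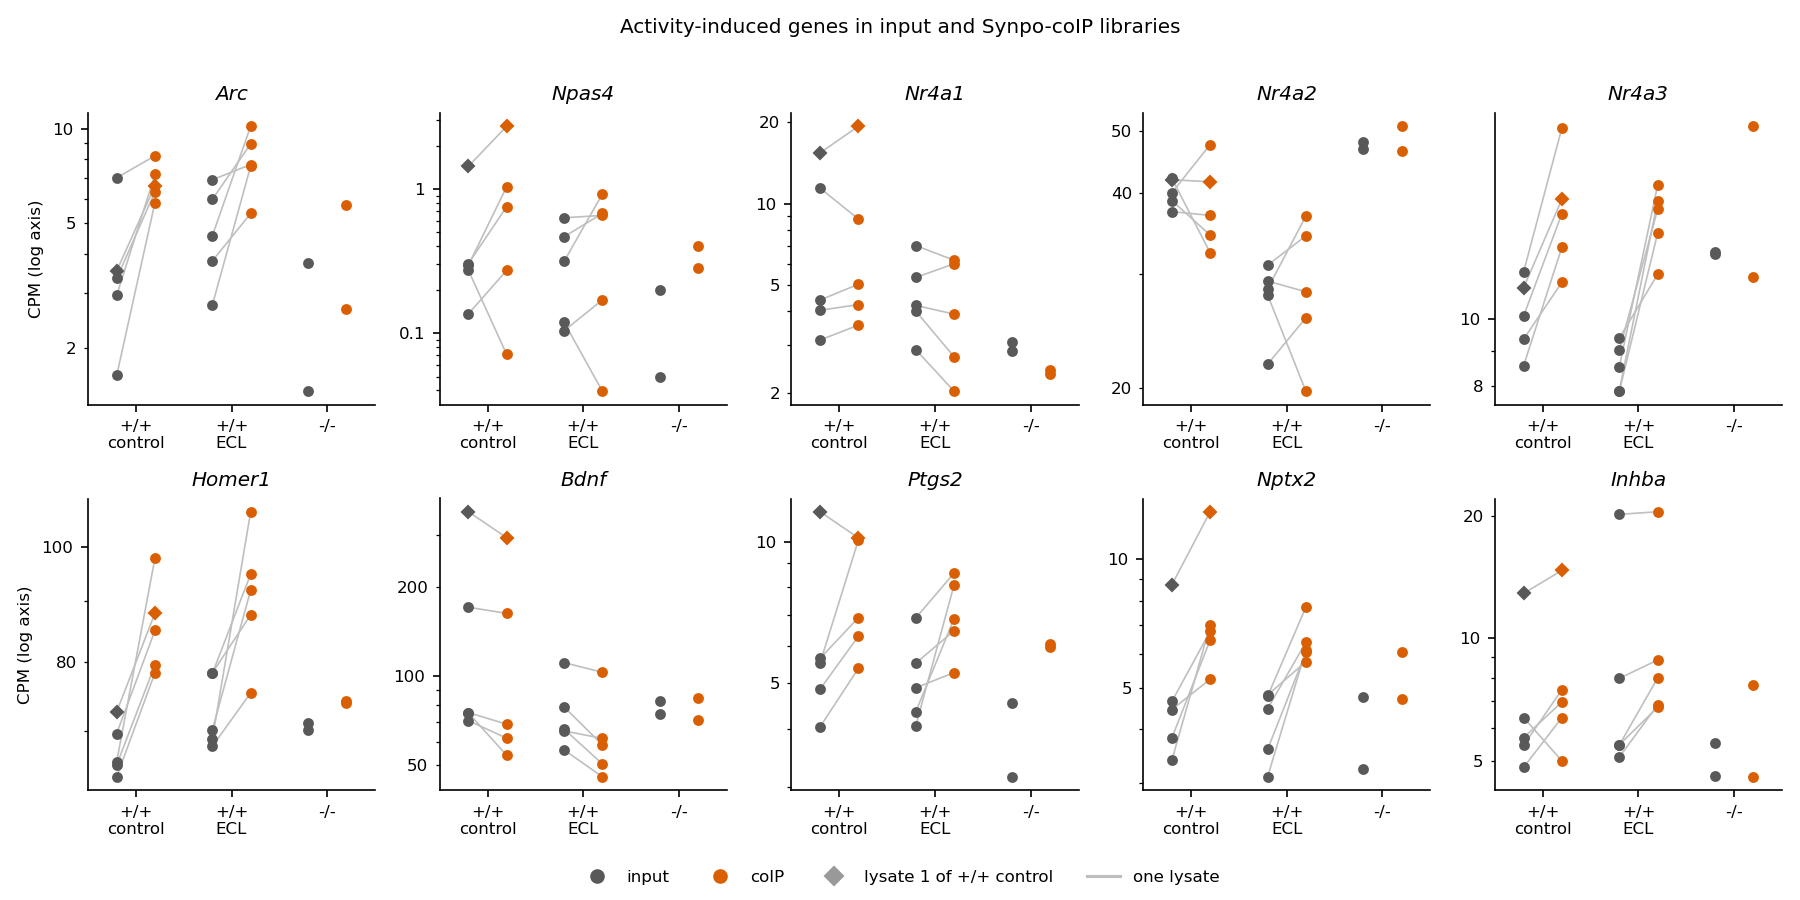
CPM of the 10 genes in input and coIP (log axis), for control and lesioned Synpo+/+ cultures, with a line for each lysate, and for cultures labelled Synpo-/-. Arc rises from input to coIP in 5 of 5 lysates of both Synpo+/+ groups and Bdnf falls in 5 of 5.

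Replicate 1 of the control lysates stood apart, with 360 CPM of Bdnf and 15.4 CPM of Nr4a1 in input against 70.6 to 171 and 3.14 to 11.4 CPM in the others. Without it in both fractions 5 members were called in control cultures, Arc, Nr4a3, Homer1, Ptgs2 and Nptx2, with 51.5% of all genes. Neither the interaction of fraction with genotype nor that of fraction with lesion called a member in edgeR or DESeq2, also not at an unadjusted p under 0.05, and edgeR called 0% of genes in both.

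Of the partners of Homer1, which are long postsynaptic and calcium store genes, 8 of 9 were higher in coIP in control and in lesioned Synpo+/+ cultures, with medians of log2 0.88 and 0.90, and 6 of 9 in the libraries labelled Synpo-/-. Over all genes tested, 29.6%, 30.5% and 15% were called higher in these comparisons. With the length trend removed, 7, 6 and 1 of the 9 were called higher, with medians of log2 0.33, 0.37 and 0.26, so these values moved with gene length as that of Homer1 did. The scaffold gene Shank1 had log2 fold changes of 1.21 and 1.22 in the Synpo+/+ groups, and was also called with the label Synpo-/- (0.72). Of the Bdnf receptors and sorting genes, 5 of 6 and 4 of 6 were higher, among them the sorting receptor gene Sorcs2 (1.11 and 1.04). Sorcs2 (0.77) and Furin (0.70) were also called higher in coIP with the label Synpo-/-. The further transcription factors went both ways, with 2 higher and 4 lower of 22 in control cultures and 3 higher and 7 lower in lesioned ones. Klf6 was lower by log2 0.66 and 0.72 and Per1, a clock gene, higher by 0.63 and 0.91. With the label Synpo-/- both were called in the same directions (log2 -0.76 and 0.72). The further effectors did so too, with 6 higher and 8 lower of 29 in control cultures. Nrn1, a small membrane-anchored neuritin, was lower by log2 1.09 there and by log2 0.92 with the label Synpo-/-. Microglial markers were lower in coIP in 3 of 8 cases in control and 7 of 8 in lesioned Synpo+/+ cultures. Sums of general neuron markers were 4538 to 5863 CPM in coIP and 7487 to 8967 CPM in input of control cultures. In lesioned ones they were 3899 to 5152 and 6448 to 7912 CPM. CA1 and subiculum markers went the other way, with 232 to 311 against 148 to 217 CPM in control and 239 to 292 against 152 to 186 CPM in lesioned cultures. The part of these markers was not tested.

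The lesion was also compared in whole cultures. In Synpo+/+ input 1 of 9 members tested was called, Nr4a2, which fell. It had 42, 40.1, 42.2, 39 and 37.5 CPM in controls and 31, 27.9, 21.8, 29.3 and 28.5 CPM after ECL, without overlap (log2 -0.54, SE 0.0962, adjusted p = 0.00675), and the call held in 10 of 10 fits that left out 1 library. Microglial markers had sums of 556 to 1089 CPM in control and 1020 to 1470 CPM in lesioned input, and 3 of 8 were called higher. Astrocyte markers had sums of 14259 to 21911 and 20106 to 30255 CPM, with 1 of 6 called higher. Sums of general neuron markers were 7487 to 8967 and 6448 to 7912 CPM (1 of 6 called lower), those of CA3 markers 768 to 1206 and 676 to 838 CPM (0 called) and those of interneuron markers 1290 to 3528 and 1064 to 1571 CPM (2 of 8 called lower). The part of these markers in the result was not tested. In DG of the same genotype Nr4a2 was higher after ECL, as given above. In Synpo+/+ CA3, with 2 control and 3 ECL libraries, it was lower but not called (log2 -0.55, SE 0.165, adjusted p = 0.0946). Npas4 did not pass the filter on low counts. Arc, the member with the largest log2 fold change in DG, had a log2 difference of 0.38 (adjusted p = 0.574) in input. The share of all genes called was 5.61%, and that of genes without overlap 6.12%. In coIP edgeR called 0 members and 0.314% of all genes, and DESeq2 called 0 members. Nr4a1 (log2 -0.95), Nr4a2 (-0.40) and Bdnf (-0.99) were under 0.05 before adjustment in edgeR. Control lysates 1 and 2 had 294 and 163 CPM of Bdnf and 19.3 and 8.77 CPM of Nr4a1 in coIP, above the other controls. The medians were 68.7 CPM in control and 58.5 CPM in lesioned coIP for Bdnf, and 5.04 and 3.91 CPM for Nr4a1.

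The genes most like each member across the 39 regional libraries were found by Pearson's r of log2 CPM among 8415 genes, as a description, since the libraries share region and lesion. Nr4a1 went with Fos (r = 0.91) and Btg2 (0.90), Npas4 with Egr1 (0.80) and Fos (0.79), and Nr4a2 with Fos (0.74) and Fbxo33 (0.74). Arc was most like S100a11 (0.87) and Egr1 (0.87). Ptgs2 was most like Nectin3 (0.95) and Sh3bp5 (0.95), Nr4a3 like Lpl (0.90) and Nrp1 (0.89), and Homer1 like Atp1b1 (0.86) and Tpp2 (0.86). For Bdnf these were Mir22hg (0.85) and Rasl11a (0.85) and for Inhba Pcsk1 (0.66) and Zfp804a (0.66). No gene came above 0.44 for Nptx2, whose counts were low.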

How the data were processed

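RNA-seq counts of 63 libraries were used. Per the methods and the submitters' processing notes, the authors used cutadapt 3.5 for trimming, STAR 2.7.8a for mapping to mm10 and unstranded featureCounts 2.0.1 on GENCODE exons. They deposited raw counts for each gene symbol. Of 55291 symbols, 107 stand for more than 1 gene, and 0 columns were left unused. Samples were grouped by the labels. No pair of replicates (130 pairs) held identical values.

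Each comparison was fitted to all genes of its groups with edgeR 4.0.16 (R 4.3.3), with TMM normalization, filterByExpr, the quasi-likelihood test and Benjamini-Hochberg adjustment over all genes tested. Adjusted p under 0.05 was called. SE is the log2 fold change divided by the root of F. CPM used TMM library sizes over each experiment, and CPM per kb the union of annotated exons. The fits were tested on simulated data. Depth limits the genes near 1 CPM, and intervals of single libraries would cover counting error only. The genes named are the 10 members, those of the lists with the smallest p, up to 3 in each direction, and the 2 genes most like each member. The members and lists were chosen with earlier results of these data known. The authors' limit of 300 on the mean normalized count was an alternative only, beside DESeq2 1.42.0, RLE size factors, no filter, a removed length trend (lowess, span 0.3, genes with a mean count over 50), replicate blocks, all groups of a region together, and each library left out. Leaving out lysate 1 in both fractions, lesioned Synpo+/+ DG library 5, or all libraries without more Xist than Y-linked counts was chosen after seeing the data. CoIP and input of a number were taken as 1 lysate on the labels. Their deviations correlated with r from 0.189 to 0.442 in 5 control pairs and from 0.105 to 0.381 in 5 lesioned pairs. Some coIP samples correlated more with the input of another number. These were control coIP 2 with input 1 (0.29 against 0.189) and coIP 3 with input 5 (0.214 against 0.209), and lesioned coIP 2 with input 1 (0.147 against 0.122). The correlations alone therefore do not settle the pairing. The Synpo-/- coIP labels carry crossed numberings, and that of the title was used.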

Additional observations from a re-analysis of the deposited data

Results flagged for a closer look

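Each member was looked at in each group of 4 to 7 libraries, 100 tests in all. In 13 of them the highest or lowest library stood further from the rest than Dixon's 95% critical value allows. Chance flags about 1 in 20 such tests, but tests of different members share libraries and are not independent. Control lysate 1 of Synpo+/+ accounted for 6 of the 13 flags. In its input it had 1.44 CPM of Npas4 (others 0.136 to 0.304), 11.6 CPM of Ptgs2 (others 4.04 to 5.65), 8.71 CPM of Nptx2 (others 3.39 to 4.65) and 12.9 CPM of Inhba (others 4.81 to 6.38). In its coIP it had 12.9 CPM of Nptx2 (others 5.24 to 7) and 14.7 CPM of Inhba (others 4.99 to 7.47).

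Lesioned lysate 2 had 20.2 CPM of Inhba in input (others 5.1 to 7.97) and 20.5 CPM in coIP (others 6.76 to 8.84), so both fractions of the lysate stood apart in the same gene. Lesioned lysate 1 had 103 CPM of Bdnf in coIP (others 45.6 to 61.5). In lesioned Synpo+/+ DG, library 5 had 77.8 CPM of Ptgs2 (others 5.47 to 14.2) and library 6 had 2.27 CPM of Inhba, the lowest (others 3.19 to 3.86). Nr4a1 was at 10.3 CPM in lesioned Synpo-/- CA3 library 4 (others 4.39 to 6.38) and at 6.4 CPM in control library 5 of the same region (others 3.19 to 3.98).

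The lesion effects in DG and CA3 of Synpo-/- cultures differed by an interaction test for Nr4a1, by 1.83 on the log2 scale (adjusted p = 0.00285), and for Nr4a2, by 1.79 (adjusted p = 0.0128).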

How the results depend on the processing

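Of 39 calls of a member in a comparison, 28 held in every fit that left out a library and 11 were lost in some. Over the other alternatives, 228 of 262 values of called members kept direction and call, 32 lost the call and 2 reversed. The reversed values were Homer1 in coIP against input with the length trend removed, -0.07 (adjusted p = 0.571) in control and -0.10 (adjusted p = 0.466) in lesioned cultures. A mean normalized count over 300, which leaves fewer genes to be called, left 2 members for the lesion in Synpo+/+ DG, 2 in Synpo-/- DG, 1 in Synpo-/- CA3, 3 for DG against CA3 in Synpo+/+ controls, 1 for coIP in control and 1 in lesioned Synpo+/+ cultures, and 1 for region by lesion in Synpo-/-. For the lesion in Synpo+/+ CA3, no filter gave 3 members. For DG against CA3 in lesioned Synpo+/+, DESeq2 gave 2 and no filter 3. For the genotype in control CA3, DESeq2 gave 1 and no filter 2. The cause was not tested.

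Leaving out each library in turn gave 3 to 7 members for the lesion in Synpo+/+ DG, 4 to 6 in Synpo-/- DG, 0 to 1 in Synpo+/+ CA3 and 1 to 3 in Synpo-/- CA3. For DG against CA3 it gave 3 to 6 in Synpo+/+ and 5 to 7 in Synpo-/- controls, and 0 to 5 and 3 to 5 in lesioned cultures. For coIP against input it gave 3 to 5 in control, 4 to 5 in lesioned and 0 to 2 in Synpo-/- cultures. Where Synpo+/+ CA3 controls were left with 1 library, it is assumed to vary like the others. Without lysate 1 in both fractions, coIP in control cultures had 5.

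With the replicate number as a block, coIP against input had 5 members in control, 6 in lesioned and 1 (Ptgs2) in Synpo-/- cultures, where the pair correlation was 0.0456. These fits called 58.6%, 58.1% and 35.8% of all genes. Regional libraries share only a number. There the block gave 2 members for the lesion in Synpo+/+ CA3, 8 for DG against CA3 in lesioned Synpo+/+ and 2 for the genotype in control CA3. The shares of all genes called were 7.47%, 17.5% and 7.69%. Removing the length trend moved the median of all genes by -0.14 in the lesion comparisons of Synpo+/+ DG and CA3. Depth limits Npas4 and Nptx2, at 1 CPM or less in many libraries.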
